A study of Mus musculus with 28 samples.

Results

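The comparison was the response of Nrf2 knockout (Nrf2 -/-, KO) bone marrow-derived macrophages to RA839, a compound that attaches to Keap1 without a covalent bond. It rested on 8 of the 28 arrays of the series, chosen by their titles: 4 arrays of KO cultures given RA839 and 4 of KO cultures given the solvent DMSO alone. It asks what the compound does where Nrf2, the factor it is meant to release, is absent, and how large a change the arrays can exclude. All 8 cultures came from bone marrow of Nrf2 -/- mice of the C57BL/6 J strain, 12 weeks of age, and all held 0.2% DMSO for 4 h before RNA was taken. The concentration of RA839 and the knocked-out part of the gene were not given in the sources used, and the design text writes RA838 where the titles write RA839. Replicates were biological per the design text, but whether they came from separate mice is not stated, so the tests measure the spread between these cultures. For comparison, 4 RA839 and 4 DMSO arrays of Nrf2 +/+ (wild-type, WT) macrophages of the same strain, age and exposure were used.

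Nrf2, encoded by Nfe2l2, is a transcription factor that the adaptor Keap1 holds for degradation by the proteasome. Electrophiles, or compounds that occupy its binding site on Keap1, let Nrf2 accumulate and switch on genes of glutathione synthesis, quinone reduction and thioredoxin recycling. A Keap1 ligand can act on cells without Nrf2 through other clients of Keap1 or through proteins unrelated to it, and macrophages carry further stress sensors, among them MTF1 for metals, HSF1 for misfolded protein and the aryl hydrocarbon receptor for aromatic compounds.

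The values were RMA signals on a log2 scale, in which a difference of 1 is a doubling, and 18193 genes were measured, each by its brightest probe set. The targeted gene has 2 probe sets. The brighter, used here for Nfe2l2, read 3.36, 3.27, 3.46 and 3.52 on KO_DMSO arrays 1 to 4 and 3.18, 3.25, 3.38 and 3.26 on KO_RA839 arrays 1 to 4, against 11.85 to 12.96 on the 8 WT arrays. The second read 7.61 to 8.66 on the 8 KO arrays and 8.33 to 9.40 on the 8 WT arrays, with overlapping ranges. Only the brighter separates the genotypes, and which probes lie in the deleted part is not known here. With all genes split into 4 equal classes by level, the KO values of the brighter probe set lay in the lowest (2.09 to 4.51). All 8 arrays had medians of 5.66 to 5.70, and the Gapdh control probes at the 3′ end read 0.77 to 0.88 above those at the 5′ end, a measure of RNA integrity. All 16 macrophage markers were measured, among them Lyz2, Csf1r and Cd68 at DMSO means of 14.47, 14.32 and 14.22. The mean linear signal over the macrophage markers, given as log2, was 13.03 to 13.33, and it was 11.90 to 12.31 over 9 dendritic cell markers, 11.40 to 11.48 over 8 osteoclast markers, 7.54 to 8.26 over 11 neutrophil markers, 5.84 to 6.20 over 7 B cell markers and 5.31 to 6.08 over 8 T cell markers. These are means over different probes, so their order gives no shares of cells. In such bulk cultures fewer cells of a type and less RNA per cell cannot be told apart.

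Without Nrf2, RA839 changed 0 of 18193 genes (0%) past an adjusted p of 0.05 in limma with the 4 same-numbered DMSO and RA839 arrays as pairs. The smallest adjusted p was 0.508. A gene passing alone would need a change of 1.32 at the median SE, or 2.50-fold. A count of 0 therefore leaves room for smaller changes, which the intervals below bound. An unadjusted p under 0.05 was reached by 1610 genes (8.85%), of which 912 were higher with RA839 (5.01%) and 698 lower (3.84%). Without the pairing 0 genes passed and 585 had an unadjusted p under 0.05. Mean differences on the log2 scale ran from −0.9996 to 1.0045, and 37 genes moved 1.5-fold or more on average, 32 of them higher and 5 lower. In WT, in a fit of all 16 KO and WT arrays, 315 genes rose (1.73%) and 171 fell (0.94%), 486 in all. That count was 195 without WT pair 3, 198 without WT pair 4 and 120 without the pairing. For a limma variance prior that follows the signal level, 20 genes passed in KO (10 higher, 10 lower), a count that became 1, 51, 1 and 3 without pair 1, 2, 3 and 4, 0 without the pairing and 0 with the pairing on all 16 KO and WT arrays.

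For most genes a change of moderate size was excluded. A 95% interval was set around the mean RA839 minus DMSO difference of each gene. For 17501 genes (96.2%) it excluded a 1.5-fold change in either direction, for 18117 (99.6%) a 2-fold change and for 10630 (58.4%) a 1.2-fold change. The median interval reached 0.16 to each side on the log2 scale, a 1.12-fold change. By 2 one-sided limma tests adjusted over all genes, 17796 genes (97.8%) lay within 1.5-fold and 18147 (99.7%) within 2-fold. Without the pairing the intervals were wider, a median of 1.18-fold to each side, and 88.2% of genes still excluded a 1.5-fold change and 97.1% a 2-fold change. Precision differed between levels. In the brightest of the 4 level classes 99.7% excluded a 1.5-fold change and 92.9% a 1.2-fold change, while in the dimmest 95.1% and 33.7% did. The share excluding a 1.5-fold change was lowest in the class above the dimmest, 92.1%, which held 46 of the 76 genes that did not exclude a 2-fold change. The interval of a dim probe set bounds its signal and not its mRNA, since no detection calls were used. The intervals are also those of the mean over pairs, and some genes moved in opposite directions in different pairs, as described further on. They take the 4 pairs as independent, although the differences of pairs 3 and 4 correlated over genes (r = 0.35). Whether this makes the intervals too narrow was not tested.

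**Figure D1:**
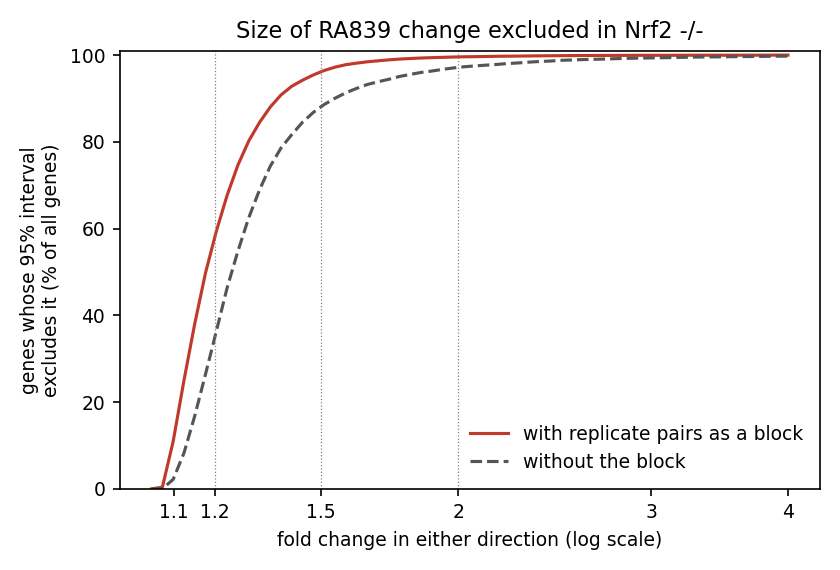
Share of the 18193 genes (y axis, percent) whose 95% interval for RA839 minus DMSO in Nrf2 -/- macrophages excludes a change of the fold on the x axis (log scale) in either direction, with same-numbered arrays as a block (solid) and without (dashed). The solid line passes 58.4% at 1.2-fold, 96.2% at 1.5-fold and 99.6% at 2-fold.

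Keap1, the protein RA839 binds, read 10.18, 10.32, 9.98 and 9.96 on KO_DMSO arrays 1 to 4 and 10.15, 10.19, 10.05 and 10.07 on KO_RA839 arrays 1 to 4. Its mean difference was 0.01 (interval −0.13 to 0.15). All 14 measured genes of the Keap1 complex and its other clients excluded a 1.5-fold change, as did 96.2% of all genes.

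The classical Nrf2 targets lay close to their DMSO level in KO. Gclc and Gclm encode the catalytic and modifier subunits of the rate-limiting enzyme of glutathione synthesis. Gclc read 8.63, 8.57, 9.03 and 9.05 on KO_DMSO arrays 1 to 4 and 8.80, 8.71, 9.04 and 9.13 on the same-numbered RA839 arrays, so that the groups overlapped. Its mean difference was 0.10 ± 0.05 (SE, n = 4 pairs; limma adjusted p = 0.597), and its interval, −0.02 to 0.22, excluded a rise of more than 1.16-fold. The same probe set rose by 1.31 in WT (adjusted p = 0.000259), and the response differed between genotypes by 1.21 ± 0.14 (adjusted p = 0.00786). Gclm read 7.63, 7.76, 8.24 and 8.28 with DMSO and 7.69, 7.70, 8.44 and 8.37 with RA839, also overlapping. Its mean difference was 0.07 ± 0.06, its interval ended at 0.21, and WT exceeded KO by 1.09 (adjusted p = 0.0306). Srxn1, the sulfiredoxin that repairs overoxidised peroxiredoxins, was at 0.08 ± 0.05 with an interval ending at 0.20, and WT exceeded KO by 0.65 (adjusted p = 0.0201). The Gclm and Srxn1 differences did not pass without the pairing (adjusted p = 0.461 and 0.241) or without any 1 of 7 of the 8 pairs, all but WT pair 2 (adjusted p up to 0.123 and 0.0912), whereas Gclc passed in each of these fits (up to 0.0458).

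Other targets of the list ran from narrow to wide intervals. Txnrd1, thioredoxin reductase, was at 0.05 (interval −0.06 to 0.15), and Slc7a11, the cystine importer, was at −0.06 (interval −0.21 to 0.10). The haem-degrading enzyme Hmox1 was at 0.16 with the wide interval of −0.10 to 0.42, and its pairs parted: −0.06 and −0.02 in pairs 1 and 2 against 0.48 and 0.24 in pairs 3 and 4. These 3 genes rose in WT (0.36, 0.76 and 0.70, adjusted p = 0.0120, 0.00626 and 0.0131), calls that were lost without the pairing (0.222, 0.218 and 0.204). The Txnrd1 and Hmox1 calls were also lost without WT pair 3 or 4 (adjusted p up to 0.0644 and 0.0678). A difference between genotypes did not pass for any of them on these probe sets (adjusted p = 0.277, 0.0760 and 0.357). A dimmer Slc7a11 probe set was at −0.30 in KO (interval −0.53 to −0.07). It rose by 1.37 in WT (limma adjusted p over all probe sets = 0.000689). Dimmer Txnrd1 probe sets, at KO DMSO means of 4.79 and 4.00, were at 0.13 and 0.16 in KO. In WT they rose by 1.23 and 1.02 (0.00277 and 0.0111 over all probe sets). The difference between genotypes is not given for these dimmer probe sets. Of 32 measured NRF2 core targets 0 passed in KO, 31 excluded a 1.5-fold change and all 32 a 2-fold change. These counts are near the background of 96.2% and 99.6% of all genes. The median of the 32 was 0.04, beside 0.003 over all genes and 0.47 for the same list in WT, where 17 rose. Of the 32, 7 were higher in all 4 KO pairs and 2 lower, where 9.51% and 8.18% of all genes were. Slc6a9, a glycine transporter, and Osgin1 were at 0.09 and 0.01 in KO, and WT exceeded KO by 1.21 and 1.22 (adjusted p = 0.00339 and 0.0212; 0.299 and 1.00 without the pairing). The Osgin1 call was also lost without WT pair 4 or any 1 KO pair (adjusted p up to 0.0939).

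The 1 member whose interval did not exclude a 1.5-fold change was Nqo1, a quinone reductase. It read 6.98, 7.25, 6.92 and 6.79 on KO_DMSO arrays 1 to 4 and 7.56, 7.48, 7.13 and 7.34 on the RA839 arrays. It was higher with RA839 in each pair, by 0.58, 0.22, 0.22 and 0.55, although RA839 array 3 lay below DMSO array 2. The mean was 0.39 ± 0.08 (adjusted p = 0.524), and the interval, 0.18 to 0.61, ended at 1.52-fold. In WT Nqo1 rose by 0.63 (adjusted p = 0.00432), and the genotypes did not differ past the threshold (0.23, adjusted p = 0.602). Of the remaining list members Gsta3 and Mgst1, both glutathione transferases, were higher in each pair, at means of 0.21 and 0.11.

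**Figure D2:**
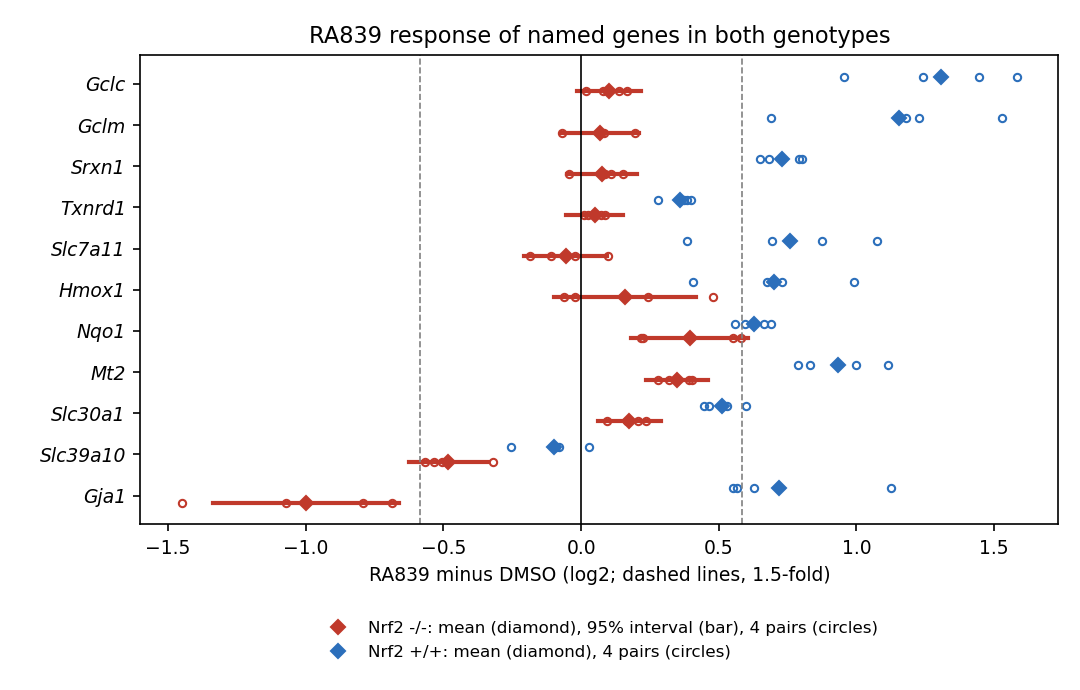
RA839 minus DMSO (log2, x axis) for 7 Nrf2 targets, 3 zinc-handling genes and Gja1, with each same-numbered pair as an open circle and the mean as a diamond, in Nrf2 -/- (red, with the 95% interval as a bar) and Nrf2 +/+ (blue); dashed lines mark 1.5-fold. The red intervals of Gclc, Gclm, Srxn1, Txnrd1 and Slc7a11 lie between the dashed lines and near 0, those of Nqo1 and Mt2 lie above 0 and those of Slc39a10 and Gja1 below 0.

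Nqo1 is also a target of the aryl hydrocarbon receptor (AhR). Of 9 measured AhR targets 0 passed in KO, and their median was 0.09. Ahrr, the repressor that AhR itself induces, read 9.03, 9.70, 8.12 and 8.46 on the DMSO arrays and 9.12, 9.86, 8.73 and 9.04 on the RA839 arrays. The differences were 0.09, 0.15, 0.61 and 0.59, so each pair was higher and pairs 3 and 4 more so than pairs 1 and 2. The mean was 0.36 ± 0.11 (interval 0.08 to 0.64), and in WT it was 0.50 (adjusted p = 0.0353; 0.554 without the pairing and up to 0.1295 without any 1 WT pair). Cyp1b1 was at −0.11, 0.07, 0.44 and 0.42 in the 4 pairs. Cyp1a1, the most widely used AhR marker, was at 0.11 with an interval of −0.19 to 0.40 and a dim DMSO mean of 3.64. The other members were Tiparp (0.09), Cyp1a2 (0.03), Aldh3a1 (−0.03), Lfng (−0.06) and Serpinb2 (−0.23), none of one sign in all 4 pairs.

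Of 6 measured genes of zinc handling 0 passed in KO, 3 were higher in all 4 pairs (9.51% of all genes) and 1 was lower (8.18%), and their median was 0.07. Metallothioneins bind zinc and copper, the transcription factor MTF1 switches their genes on when free zinc rises, Slc30a1 exports zinc from the cell, and Slc39a10 imports it. Mt2 read 12.87, 12.79, 12.74 and 13.01 on KO_DMSO arrays 1 to 4 and 13.26, 13.07, 13.15 and 13.33 on the RA839 arrays, and the groups did not overlap. Of all genes, 1.19% were separated in this way. The 4 differences were 0.39, 0.28, 0.40 and 0.32, with a mean of 0.35 ± 0.04 (interval 0.24 to 0.46, 1.18-fold to 1.38-fold; adjusted p = 0.508, the smallest in the comparison and shared with other genes, and 0.000446 with the prior that follows the signal level, which called 0 genes on 16 arrays). In WT Mt2 rose by 0.93 (adjusted p = 0.000281) from a lower DMSO mean of 11.06. The difference between genotypes was 0.58 (adjusted p = 0.0537).

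Slc39a10 went the other way. Its brighter probe set read 10.23, 10.25, 10.64 and 10.59 with DMSO and 9.73, 9.93, 10.11 and 10.02 with RA839, with no overlap, a separation shown by 0.923% of genes. The differences were −0.51, −0.32, −0.54 and −0.57, a mean of −0.48 ± 0.06 (interval −0.63 to −0.34; adjusted p = 0.508, and 0.0107 with the prior that follows the level, likewise not on 16 arrays). A second probe set gave −0.48, −0.58, −0.36 and −0.58. In WT the brighter probe set was at −0.10 (adjusted p = 0.474) and the second at −0.89 (adjusted p = 0.270 over all probe sets), and the genotypes did not differ past the threshold (0.38, adjusted p = 0.277).

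Slc30a1 was higher in each KO pair, by 0.24, 0.20, 0.10 and 0.17, a mean of 0.18 ± 0.04 (interval 0.06 to 0.29), with overlapping groups. Its second probe set was at 0.03, 0.17, 0.20 and 0.25, and in WT the gene rose by 0.51 (adjusted p = 0.00280; 0.0563 without the pairing). Mt1 has 2 probe sets that disagreed in size. The brighter, at a DMSO mean of 13.69, differed by 0.10, 0.11, 0.06 and 0.08. The dimmer read 6.92, 6.79, 7.39 and 7.34 with DMSO and 7.47, 7.35, 7.73 and 7.95 with RA839, differences of 0.55, 0.55, 0.34 and 0.62. Each of these pairs was higher with RA839. The other members, Mtf1 and Mt3, were at 0.05 and 0.04, each with 1 pair of the opposite sign.

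The promoters of the 3 genes that were higher in every pair are shown because MTF1 is known to act on such promoters through short metal response elements. RefSeq windows of 300 bases on GRCm38.p6, 250 before and 50 after the start of the gene, were searched on both strands for the core of the metal response element, TGCACNC or TGCGCNC. It was present at least once in 25.7% of 32851 such windows, at least 2 times in 7.11% and at least 3 times in 1.97%. The window of Mt2 held 4 matches, beginning at −223, −128, −50 and 5, that of Mt1 held 3, at −23, 3 and 21, and that of Slc30a1 held 2, at −43 and 31, counted from the first base of the gene as 1. None of them overlapped a match to the antioxidant response core TGACNNNGC, which 12.4% of windows held, those of Mt2 and Slc30a1 among them. The 250 bases upstream of each start are given 5′ to 3′ on the strand of the gene, all on the plus strand, with the metal cores, or their complements, in capitals. They lie at chr8:94172368-94172617 (Mt2), chr8:94178839-94179088 (Mt1) and chr1:191906531-191906780 (Slc30a1).
Mt2: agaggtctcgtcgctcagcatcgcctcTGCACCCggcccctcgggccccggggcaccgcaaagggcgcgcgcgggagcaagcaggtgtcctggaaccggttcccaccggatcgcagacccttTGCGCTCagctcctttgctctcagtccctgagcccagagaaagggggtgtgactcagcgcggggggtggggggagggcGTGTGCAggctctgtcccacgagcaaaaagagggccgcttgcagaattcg
Mt1: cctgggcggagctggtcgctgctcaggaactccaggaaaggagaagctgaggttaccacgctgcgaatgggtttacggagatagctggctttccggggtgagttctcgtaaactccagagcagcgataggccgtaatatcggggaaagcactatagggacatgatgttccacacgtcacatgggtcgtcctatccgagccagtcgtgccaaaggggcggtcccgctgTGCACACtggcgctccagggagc
Slc30a1: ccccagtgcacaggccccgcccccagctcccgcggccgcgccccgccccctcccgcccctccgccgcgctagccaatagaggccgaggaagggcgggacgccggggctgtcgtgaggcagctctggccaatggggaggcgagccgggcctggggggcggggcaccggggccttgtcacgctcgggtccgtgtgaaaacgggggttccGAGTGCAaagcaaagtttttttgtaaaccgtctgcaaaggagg
Neither of the 2 windows of Slc39a10 held a metal core, nor did the window of Nqo1, whereas that of Gclm, which was at 0.07, held 3. A match describes letters, and binding was not measured.

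**Figure D3:**
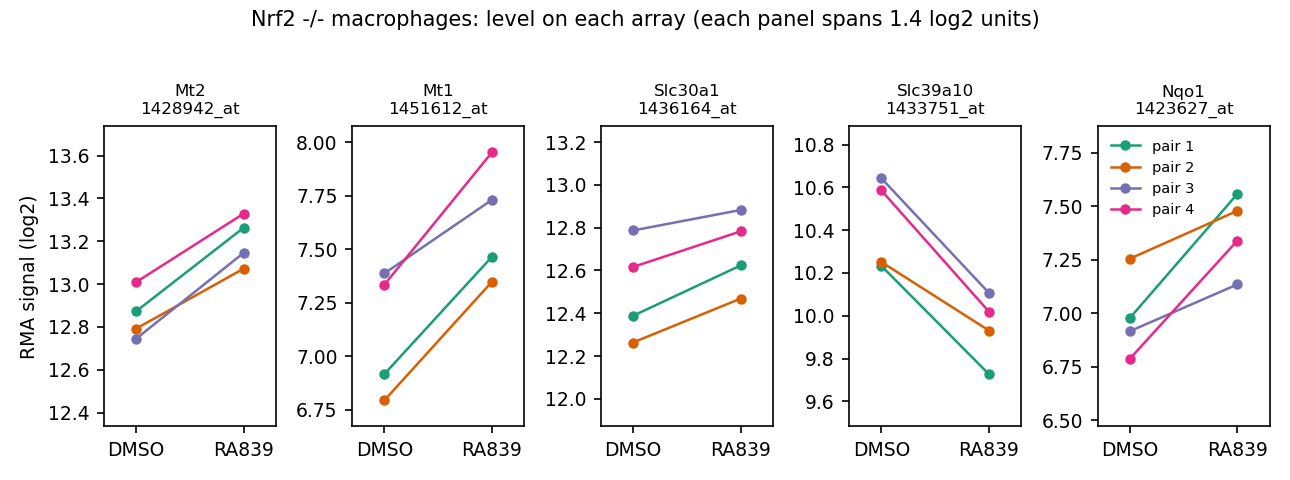
RMA signal (log2, y axis) of 5 probe sets on each Nrf2 -/- array, with same-numbered DMSO and RA839 arrays joined; every panel spans the same range. Lines for Mt2, Mt1, Slc30a1 and Nqo1 slope up in each of the 4 pairs and those for Slc39a10 slope down, with differences of −0.32 to −0.57.

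The 10 genes with the smallest p in each direction, of one sign in all 4 pairs and at or above the median level, ranged from 0.27 to 0.50 where higher and from −0.48 to −0.23 where lower; this choice used the comparison itself, so the values, and their evenness across pairs, are a description. Of each 10 only 1 had groups that did not overlap, Mt2 and Slc39a10. The highest was S1pr3, a receptor for sphingosine 1-phosphate, at 0.24, 0.64, 0.68 and 0.43. Pgf, placental growth factor, read 7.63, 8.23, 9.38 and 9.0047 with DMSO and 8.21, 8.64, 9.80 and 9.51 with RA839. It was higher by 0.41 to 0.58 in every pair, although the levels of the pairs were spread over more than these differences. The others higher were Armcx2 (0.43), Zfp319 (0.34), Slc37a1 (0.33), Nsun3 (0.30), Ccbe1 (0.28), Top1mt (0.27) and Tmem82 (0.27). Dimmer probe sets of some of these genes did not all share the rise. Those of Zfp319 were at 0.26, −0.07 and −0.27 and those of Ccbe1 at 0.28, 0.05 and −0.10. Those of S1pr3 were at 0.31 and −0.14, of Nsun3 at 0.20, 0.16 and 0.02 and of Armcx2 at 0.28 and 0.20.

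Of the 10 lower genes P2ry6, a receptor for UDP, read 11.88, 12.02, 10.46 and 10.80 with DMSO and 11.64, 11.77, 10.27 and 10.53 with RA839, a mean of −0.23 ± 0.04 that hardly varied between pairs of very unequal level. Irf5, a transcription factor of inflammatory macrophages, was at −0.28 ± 0.05 on its brighter probe set. A dimmer Irf5 probe set, at a DMSO mean of 8.92, was at −0.04 (interval −0.19 to 0.11). Adgre5 (CD97) was at −0.29, Rhobtb1 at −0.44, Enc1 at −0.37 and Rai14 at −0.25, each lower in all 4 pairs. Dimmer probe sets were at −0.42 and −0.30 for Enc1 and at −0.23 for Rhobtb1. Those of Rai14 were at 0.09, 0.01 and −0.16, and those of Mxd3, also among the lower genes, at −0.04 and 0.15. All 20 genes had the same sign in WT, which shares no array with KO, as had 66.9% of the 1034 genes higher and 73% of the 904 genes lower in all 4 KO pairs at these levels. In WT 1 of the 10 higher genes passed, Mt2, and 4 of the 10 lower ones: P2ry6 (−0.77, adjusted p = 0.00127), Rai14 (−0.50, 0.0106), Syne3 (−0.53, 0.00927) and Rhobtb1 (−0.46, 0.0334). Those 4 calls were lost without the pairing (adjusted p = 0.205 to 0.613). Rai14 was also lost without WT pair 3 (0.0629), Syne3 without WT pair 4 (0.0547) and Rhobtb1 without WT pair 3 or 4 or KO pair 1 or 3 (up to 0.133). For none of the 20 did the genotypes differ past the threshold. For Pgf (0.11), Slc39a10 (−0.10) and Mxd3 (−0.03) the WT difference lay close to 0.

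The lowest mean difference of any gene in KO was that of Gja1, which encodes connexin 43, a gap junction protein. Its brightest probe set read 5.90, 6.03, 6.52 and 5.66 with DMSO and 5.11, 5.35, 5.45 and 4.21 with RA839, without overlap. The mean was −0.9996 ± 0.13, close to a halving (interval −1.34 to −0.66; adjusted p = 0.508). In WT the same probe set rose by 0.72 (adjusted p = 0.0265; 0.494 without the pairing and up to 0.107 without WT pair 1, 3 or 4), and the genotypes differed by 1.72 ± 0.19 (adjusted p = 0.00736; 0.607 without the pairing). The other 5 Gja1 probe sets, at DMSO means of 4.40 to 4.72, gave −0.56, −0.51, −0.44, −0.24 and 0.10 in KO. Cldn23, a claudin, was at 0.85, 0.90, 1.23 and 0.38, and the cyclophilin Ppil6 at 0.63, 0.38, 0.72 and 1.07, both from levels near 5. Plppr4 was at −0.63 and Stat4, a transcription factor of the interleukin-12 pathway, at −0.63, both lower in every pair.

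The genes that answered RA839 in WT did little in KO. Of the 315 raised in WT the median was 0.56 there and 0.06 in KO, and of the 171 lowered it was −0.47 and −0.10. These genes were chosen by their WT change, which enlarges their WT medians, in a fit whose variance also drew on the KO arrays: WT called 330 to 339 genes without any 1 KO pair, and the WT arrays alone called 81 higher and 15 lower. Of the raised genes 297 (94.3%) had a KO interval that excluded a 1.5-fold rise, beside 97.4% of all genes. Of 48 raised at least 2-fold in WT, 43 did, and the 5 others were Depdc7, Dppa2, Gm10419, Gm32031 and Spic. Spic, a factor of red pulp macrophages, was at 0.40 (interval 0.10 to 0.71) in KO and 1.4017 in WT. The 3 largest named rises in WT, those of Trim9, Ddit4l and Rasd2, were 2.61, 2.23 and 2.21 there and 0.01, 0.06 and 0.04 in KO. WT exceeded KO for Trim9 (2.60, adjusted p = 0.000266), Ddit4l (2.17, 0.00524), Comp (2.04, 0.00621) and Vegfd (1.69, 0.00646), calls that held in each fit without 1 pair and without the pairing. In all the genotypes differed for 66 genes (0.363%), 61 with the higher response in WT. That count was 105 without WT pair 2, 21 to 40 without any other 1 pair and 21 without the pairing.

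Some WT responders had the same direction in KO. Of the 315 raised genes 77 (24.4%) were higher in all 4 KO pairs, where 9.51% of all genes were. Of the 171 lowered genes 66 (38.6%) were lower in all 4 KO pairs, where 8.18% of all genes were. With lists made from the WT arrays alone the shares were 16% and 33.3%, and over 6 other ways of making the lists, this one among them, they ranged from 16% to 24.9% and from 33.3% to 45.3%. Opposite directions in all 4 pairs were found for 18 of the raised and 6 of the lowered genes. Of the lowered genes 164 (95.9%) excluded a 1.5-fold fall in KO, beside 98.7% of all genes. Kcne3, a potassium channel subunit, was at −0.24 in KO and −1.28 in WT, and follistatin, Fst, at −0.37 and −1.40. The Kcne3 call in WT was lost without the pairing (limma adjusted p = 0.2252) and without WT pair 4 (0.07495). For Fst the genotypes differed (adjusted p = 0.0423, lost without any 1 pair other than KO pair 4, up to 0.171, and without the pairing, 0.358), and for Kcne3 they did not pass (adjusted p = 0.324).

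Since 0 of all genes passed in KO, the count was 0 by construction in every gene list, the 24 pathway lists included. Other stress and metabolic programmes are therefore described by their values. All 31 proteasome subunits excluded a 1.5-fold change, with intervals that reached 1.13-fold upward and 1.14-fold downward, and so did all 28 genes of autophagy and lysosomes, all 15 of the unfolded protein response and all 6 NADPH oxidase subunits. These counts are near the background, since 96.2% of all genes and 99.7% of the brightest class did so. Of 18 genes of cholesterol synthesis 8 were higher in all 4 pairs and 1 lower (background 9.51% and 8.18%), with a median of 0.07. Lss and Sqle, lanosterol synthase and squalene epoxidase, were at 0.21 ± 0.05 and 0.17 ± 0.05, while Hmgcs1, at the head of the pathway, was at −0.05. Of 23 immediate early genes 6 were lower in all 4 pairs and 1, Atf3, was higher. Klf4, Nr4a3 and Ier2 were at −0.22, −0.23 and −0.29 in KO and fell in WT by 0.67, 0.67 and 0.72 (adjusted p = 0.00617, 0.00464 and 0.0475, all lost without the pairing, at 0.238 to 0.737; Ier2 also without any 1 pair other than WT pair 2, up to 0.160). Atf3, a stress-induced factor, was at 0.12, 0.18, 0.12 and 0.12. Ppp1r15a, a regulatory subunit of the phosphatase that acts on eIF2α, was at 0.40, 0.35, 0.11 and 0.19. Of 16 macrophage markers 6 were lower in all 4 pairs and 0 higher, with a median of −0.04 and all 16 within 1.5-fold.

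Many genes differed among the KO replicate numbers. Limma called 3192 genes (17.5%) different among the 4 pairs, 701 of them by 2-fold or more between the lowest and highest pair. The count was 1626 to 1903 without any 1 pair. Between pairs 1 and 2, 37 genes lay 2-fold apart, and between pairs 3 and 4, 18 did. Across these couples the number was 443 to 540. Of 17 interferon-stimulated genes 16 (94.1%) differed among the pairs, with list medians of 10.58, 10.94, 9.31 and 9.27 in pairs 1 to 4. Ifit3, an antiviral effector, averaged 10.28, 10.63, 7.1963 and 7.37, and the chemokine Cxcl10 8.55, 9.68, 6.08 and 6.44. Genes of the ATF4 response ran the other way, with 13 of 17 differing: Ddit3 averaged 12.00, 11.85, 13.24 and 13.03 and Trib3 11.08, 11.17, 12.68 and 12.55. Cell cycle genes (24 of 32), osteoclast markers (6 of 8), macrophage markers (9 of 16) and dendritic cell markers (4 of 9) differed too. The share of all genes may be a low background for bright lists. In a limma fit of only the 9097 genes at or above the median level, 4339 differed among the pairs. Of the macrophage markers 15 of 16 lay at that level, and of the cell cycle genes 30 of 32. The list counts come from the fit of all genes, so the share in this second fit is not a like background for them. Of the dendritic cell markers only 4 of 9 lay at or above the median level. The mean linear signal over the macrophage markers, as log2, was 13.25 to 13.33 in pairs 1 and 2. In pairs 3 and 4 it was 13.03 to 13.11, and its part in the differences among pairs was not tested. The receptor Ccr7 averaged 8.46, 8.62, 6.32 and 5.96. The labels do not say what a replicate number stands for. With RA839 the interferon genes Ifit3 and Ifit2 were at 0.06 and 0.15 relative to DMSO. All 17 interferon-stimulated genes excluded a 1.5-fold change, as did 96.2% of all genes.

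**Figure D4:**
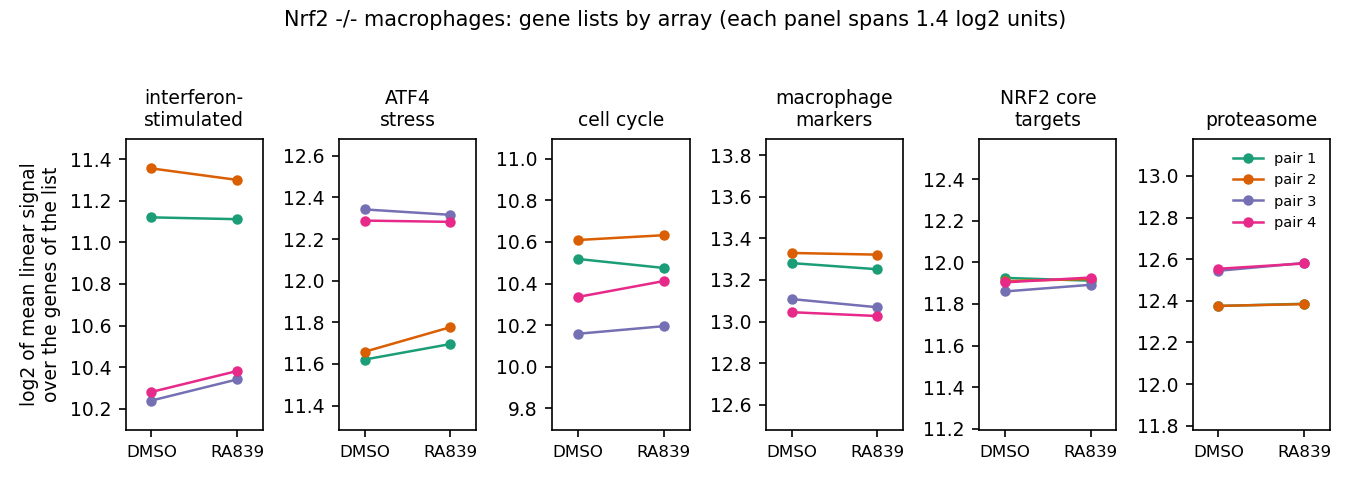
Level of 6 gene lists on each Nrf2 -/- array, as log2 of the mean linear signal over the genes of the list (y axis), with same-numbered DMSO and RA839 arrays joined; every panel spans the same range. Pairs 1 and 2 lie above pairs 3 and 4 for interferon-stimulated genes (11.11 to 11.36 against 10.24 to 10.38) and below them for ATF4 genes, while the lines themselves are nearly flat.

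The RA839 minus DMSO differences were not alike in all pairs. Within single pairs 266, 211, 447 and 373 genes moved 1.5-fold or more. Across all genes the differences of pairs 3 and 4 had r = 0.35, while the other 5 combinations of pairs had r between 0.007 and 0.05. These are correlations over 18193 genes, which are not independent, and no 2 pairs share an array. Moved 1.5-fold or more in the same direction were 139 genes in pairs 3 and 4 and 9 to 15 in any other 2 pairs. Of the 139, 112 were higher and 27 lower, and 64 of the 112 had only a clone or predicted name. The genes in these sets were picked by the differences themselves, so their KO values are a description with no test.

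Both inducible HSP70 genes were among those higher in pairs 3 and 4. Hspa1b, a heat shock chaperone, was at −0.20, 0.01, 1.63 and 1.2509 in pairs 1 to 4, and its neighbour Hspa1a at −0.30, 0.15, 1.71 and 1.04. Hspa1b read 11.65, 11.51, 10.22 and 10.19 with DMSO and 11.45, 11.52, 11.85 and 11.44 with RA839. The pairs thus differed mainly in its DMSO level, which was lower in pairs 3 and 4. The 2 genes are near-identical copies, so their signals may not be separate. In WT they were at −0.35 and 0.11. The other 11 heat shock genes measured excluded a 1.5-fold change, as did 96.2% of all genes. Dnajb1 and Bag3 were at 0.02 and −0.01. The histone gene H2bc21 was at 0.12, −0.03, 1.13 and 1.18, Zfp458 at −0.05, 0.26, 1.35 and 1.73 and the noncoding RNA Particl at −0.49, 0.19, 1.98 and 1.63. Lower in pairs 3 and 4 were Thbs1, thrombospondin (0.13, 0.31, −1.38 and −2.04), Myc (−0.05, −0.14, −0.73 and −0.82), Dusp6 (−0.36, −0.07, −0.83 and −1.01) and Ccr7 (0.02, 0.06, −0.83 and −0.83). In WT 65 of the 112 higher genes (58.0%) were higher in all 4 WT pairs, beside 11.8% of all genes, and 8 of the 27 lower ones (29.6%) were lower in all 4, beside 12.5%.

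Some targets of the lipid-sensing PPAR receptors were higher in pairs 1 and 2 than in pairs 3 and 4. Angptl4, an inhibitor of lipoprotein lipase, was at 1.37 and 1.3032 in pairs 1 and 2 and at −0.59 and −0.69 in pairs 3 and 4. A dim second Angptl4 probe set, at a DMSO mean of 3.24, gave 0.42, 1.15, 0.30 and −1.15, so pair 3 did not fall on it. Hilpda, a lipid droplet protein, was at 0.96, 1.08, −0.29 and −0.60. It read 10.00, 9.78, 11.56 and 11.47 with DMSO and 10.97, 10.85, 11.27 and 10.88 with RA839, so its pairs already differed with DMSO. Pdk4, the kinase that turns off pyruvate dehydrogenase, was at 1.19, 1.4953, 0.01 and 0.57. Smaller differences of the same order were those of Plin2 (0.25, 0.28, −0.13 and −0.13) and Cpt1a (0.25, 0.18, −0.34 and −0.38). Fabp4, Cd36 and Lpl were at 0.09, 0.05 and −0.01. For Angptl4 and Hilpda the mean over pairs, 0.35 and 0.29, describes no single pair, and their intervals (−0.74 to 1.44 and −0.53 to 1.11) did not exclude a 2-fold rise. They were among 20 such genes above the median level. Whether the response differs between pairs cannot be tested, since each pair holds 1 array of each treatment.

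**Figure D5:**
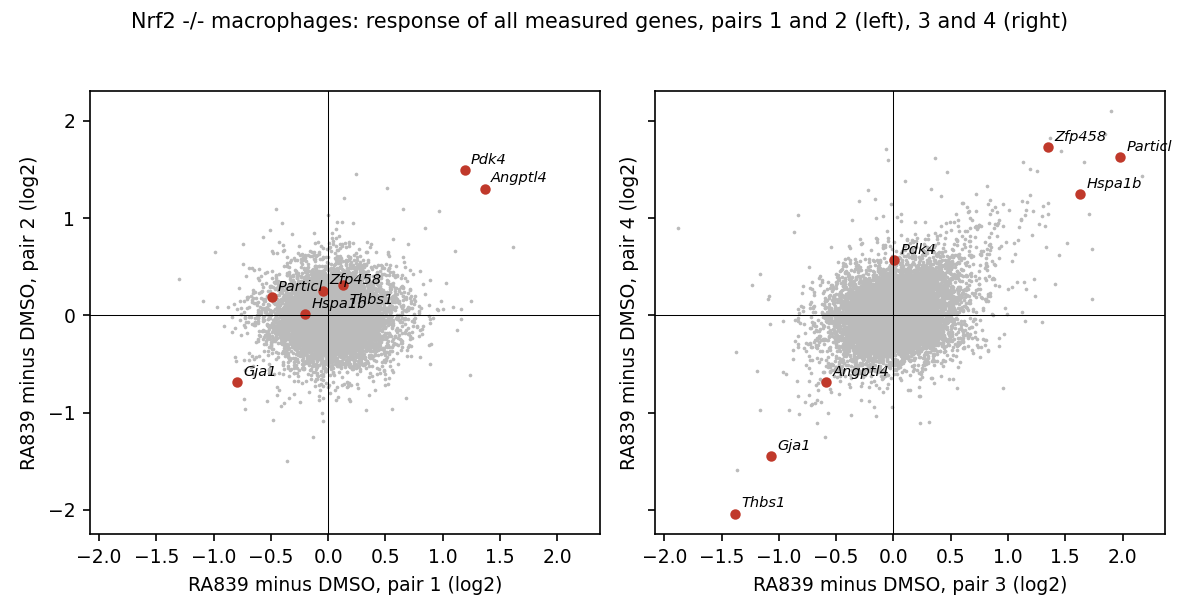
RA839 minus DMSO (log2) of all 18193 genes in Nrf2 -/- macrophages, pair 1 against pair 2 (left) and pair 3 against pair 4 (right), with 7 named genes in red. The left cloud is round apart from Pdk4 and Angptl4, at 1.19 to 1.4953, and the right cloud is drawn out along the diagonal, with Particl, Hspa1b and Zfp458 high and Thbs1 and Gja1 low.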

How the data were processed

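RNA of bone marrow-derived macrophages was hybridised to 1-colour arrays. The authors' deposited value table holds log2 signals, made by RMA per the submitters' processing notes, which give no version. RMA sets all arrays to 1 distribution, which hides a change shared by all genes and shrinks changes of dim genes. Of 45101 probe sets 34945 name 1 gene in the platform annotation. Each of 18193 genes stands on its brightest probe set, judged over all 28 arrays. The members and gene lists were chosen with earlier results of these data known.

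RA839 and DMSO were compared in limma 3.58.1 (R 4.3.3) on the 8 KO arrays, with the replicate number as a block, eBayes without a trend and Benjamini-Hochberg adjustment over all genes. Intervals are moderated 95% intervals. The numbers pair the arrays: the deviations of same-numbered KO arrays from their group means correlate at 0.66 to 0.70, and at 0.27 to 0.46 in WT. WT values and WT minus KO came from 1 fit of 16 arrays with 8 pairs. Exact sign-flip tests over 4 pairs cannot go below p = 0.125. The number of arrays limits precision. The fit was tested on simulated data.

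Genes were named by a rule: Keap1 and pathway genes, the 10 higher and 10 lower with the smallest p at or above the median level with 1 sign in all pairs, up to 3 per list, the 10 most variable among pairs, the largest WT responders, the brightest with wide intervals and the largest changes. Genes named for pairs 3 and 4, and further members of lists, were chosen after their values were seen. Alternatives were no block, a trended robust prior, means over probe sets, no multi-match probe sets, a level filter, quantile normalization, median centring, array weights and leaving out each pair. Leaving out a pair or using 16 arrays under the trended prior, and WT gene lists made in other ways, were chosen after seeing the data.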

Additional observations from a re-analysis of the deposited data

Results flagged for a closer look

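The response to RA839 differed between the genotypes, by limma on 16 arrays, for 20 named genes. WT exceeded KO in its response for Trim9 (2.6012), Cxcl3 (2.309), Ednrb (2.2584), Ddit4l (2.1737), Rasd2 (2.1733), Comp (2.0386), Cdcp1 (1.8163), Vegfd (1.6908), Prkaa2 (1.6379) and Fam13a (1.6373), all log2 differences between responses. Among Nrf2 targets the same held for Gss (1.3314), Osgin1 (1.2202), Slc6a9 (1.2119), Gclc (1.2057), Gclm (1.0869), Abcc1 (0.8357), Me1 (0.7797) and Srxn1 (0.6547). Gja1 differed by 1.7167 with opposite directions in the genotypes, and for Fst the difference was -1.0217, the lower response being that of WT. Of the 20, 8 passed without the pairing, 8 in every fit without 1 pair and 5 in all of these fits.

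Single KO arrays stood apart from the other 3 of their group for 6 of 218 groups examined, and chance alone sets apart about 5% of such groups. S1pr3 read 6.9647 on KO_RA839 array 1 and 7.89 to 7.93 on the others. On the same array Fam13a read 6.7236 (others 6.09 to 6.19), Me1 5.478 (others 4.90 to 4.99) and Gsta4 4.1824 (others 4.35 to 4.38). Ddit4l read 5.5173 on KO_RA839 array 2 (others 4.90 to 4.98), and Calcb 6.3738 on KO_DMSO array 2 (others 4.94 to 5.14).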

How the results depend on the processing

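The KO comparison called 0 genes under each alternative except the trended robust prior, which called 20, and 1, 51, 1 and 3 without pair 1, 2, 3 and 4. Under that prior 5660 genes differed among the pairs, and 1626 to 1903 did in the standard fit without 1 pair. Without the replicate block 16046 genes excluded a 1.5-fold change. With genes at or above the median level alone, fewer by construction, 9011 excluded a 1.5-fold and 9079 a 2-fold change. WT called 486 genes, 120 without the block, 820 with the trended prior, 764 above the median level and 195 to 702 without 1 pair. WT minus KO called 66, 21 without the block, 106 with the trended prior, 150 with array weights and 21 to 105 without 1 pair. Of WT-raised genes 24.4% were higher in all 4 KO pairs, and 16% with lists from WT arrays alone. The cause of these shifts was not tested. Of 2928 repeats over 216 named KO genes and 14 settings, 2880 kept direction, side of the threshold and size, 35 moved by more than their spread, 13 passed only with the trended prior and 0 reversed.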

Other observations

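Of 27 measured NF-kB targets and inflammatory mediators 0 passed in KO in limma, 20 excluded a 1.5-fold change and all 27 a 2-fold change, beside 96.2% and 99.6% of all genes. Their medians in pairs 1 to 4 were 0.07, 0.02, −0.07 and −0.06. Among single genes the chemokine Cxcl2 was at 0.69, 0.09, −0.68 and −0.90 in pairs 1 to 4, and the immediate early gene Fos at 0.53, 0.61, −0.44 and −0.40. Gadd45b, a stress-induced regulator of kinase signalling, was at 0.01, −0.12, 0.66 and 0.66. These 3 genes were picked after their values were seen.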
